A study of Mus musculus with 3 samples.

Results

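Adipose-derived stem cells (ADSC), mesenchymal cells cultured from fat, were injected straight into the ovaries of mice that had received chemotherapy, and the RNA of those ovaries was set against that of untreated ovaries. This comparison is the 1 of 3 spotted arrays in which RNA of these ovaries (ADSC-ovary) was labelled with Cy5 and RNA of ovaries of untreated mice (WT) with Cy3. It was chosen by its label alone. All mice were C57BL/6. The ADSC-ovary mice were first given cyclophosphamide, which damages DNA by alkylation and serves here as a model of premature ovarian failure (POF), and then ADSC in both ovaries. On the other arrays the Cy5 channel held ovaries of POF mice given ADSC into a vein (ADSC-iv) or of mice given cyclophosphamide alone (POF), and the Cy3 channel again held WT. Every treated group had thus received cyclophosphamide, and WT had received neither drug nor cells, although 1 sentence of the labels can be read as drawing all 4 groups from treated mice. Ovaries were collected 1 week after treatment. The labels give no drug dose, number of cells, source of the ADSC, age of the mice, number of animals behind an array, or whether all WT RNA came from 1 pool. Among these groups none had an injection into the ovaries without cells, so the effect of the injection and that of the cells cannot be told apart. There was 1 array per group and the dyes were not exchanged, so no difference below has a replicate check, dye and treatment cannot be told apart, and no p-value can be given. The number of arrays limits the precision.

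The ovary holds oocytes in follicles, granulosa cells around each oocyte, steroid-producing theca cells outside them, and a stroma with vessels and resident macrophages. Granulosa cells of growing follicles secrete inhibin and activin, which share subunits, and follistatin, which binds activin. Interferons are secreted signals of infection and immune activation. Their target genes include GTPases that act against pathogens inside cells, the MHC class I pathway that shows peptides to T cells, and chemokines that draw in leukocytes. Interferon gamma in particular raises MHC class II genes and Cxcl9.

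Each value below is a log2 ratio of Cy5 over Cy3 after background correction and an intensity-dependent (loess) normalization, averaged over the probes of a gene. Ratios given for ADSC-iv or POF are those over WT on their own arrays. A list's median on an array covers the members measured on that array, so medians set side by side can rest on different genes. A positive value means a higher signal in ADSC-ovary than in WT, and 1 on this scale is 2-fold. Spot intensities are scanner units above the local background, before normalization. Of 19459 named genes, 9942 (51.1%) were measured, that is, above background in at least 1 channel, and 0 of 768 blank spots were. Of the measured genes, 8511 were above background in both channels, 1247 in Cy5 alone and 184 in Cy3 alone. For a gene in 1 channel alone, a fold given as at least so much is a bound. It was taken against the higher of its own dim signal and the lowest signal above background on the array. The detection limit of its own spot can lie above that, so the true fold may be smaller than the bound. The median of all measured genes was 0.00, their SD 0.43, and 95% lay between -0.64 and 1.05. Where a gene had several probes, their SD was 0.19 at the median (2008 genes). Control spots, 48 per gene, averaged -0.10 for actin, -0.42 for Gapd, -0.29 for Ldha and 0.14 for Rpl5, with SDs of 0.12 to 0.17. The WT channel differed between this array and the ADSC-iv and POF arrays with an SD of 0.25 each, and at least 2-fold in 17 of 8461 (0.201%) and 22 of 8086 (0.272%) genes.

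The tissue label was checked against ovarian genes. The oocyte genes Zp3 (intensity 3166 in ADSC-ovary, 3233 in WT) and Gdf9 (1710 in ADSC-ovary, 1583 in WT), the granulosa genes Fshr (2284 in ADSC-ovary, 2303 in WT) and Inha, and the steroidogenic genes Cyp11a1 (51148 in ADSC-ovary, 31180 in WT) and Cyp17a1 (42177 in ADSC-ovary, 28404 in WT) were above background in both channels. These intensities are before normalization, after which the log2 ratio was -0.01 for Cyp11a1 and -0.12 for Cyp17a1. Foxl2, a transcription factor of granulosa cells, was dim, at 126 in ADSC-ovary and 257 in WT. Amh, the granulosa hormone of growing follicles, was not well above background in either channel. Of the genes used to recognise mesenchymal stem cells, Cd44 and Nt5e were not well above background in either channel. Thy1 had an intensity of 1915 in ADSC-ovary and 1978 in WT, and Eng was above background in WT alone. Of the list of such markers, 14 of 19 on the array were measured, with a median of -0.17 and 1 of them, Ly6a, at least 2-fold higher. The array therefore gave no measure of the transplanted cells that is separate from the host tissue. In bulk tissue, fewer cells of a type and less RNA per cell cannot be told apart.

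Far more genes were higher than lower in ADSC-ovary. Of 9942 measured genes, 266 (2.68%) were at least 2-fold higher than WT and 35 (0.352%) at least 2-fold lower. Among the genes above background in both channels, 166 of 8511 (1.95%) were at least 2-fold higher and 24 (0.282%) at least 2-fold lower. At these shares, a list of up to 36 genes would hold at most about 1 gene past 2-fold, so a count of 0 or 1 in a list is near the background. The 266 higher genes had a median of 1.45, and the same genes had medians of 0.96 for ADSC-iv and 0.81 for POF. They were picked on this array, 100 of them through Cy5 alone, so their median is largest here in part by choice. The counts on the other arrays were 203 of 10156 higher (2%) and 56 lower (0.551%) for ADSC-iv, and 110 of 9486 higher (1.16%) and 88 lower (0.928%) for POF. All 3 arrays carry WT in Cy3, so likeness between them is not independent evidence, and a difference between them was not tested. The largest ratios among bright genes belonged to Cxcl9, Serpina3f, H2-Ea, Serpina3g, Ccl8 and Zbp1, genes of chemokines, protease inhibitors, antigen presentation and nucleic acid sensing. The identity of the H2-Ea signal is uncertain, as given with the class II genes. The smallest belonged to Inhba, Ddx6, Fst and Eif4g1.

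**Figure D1:**
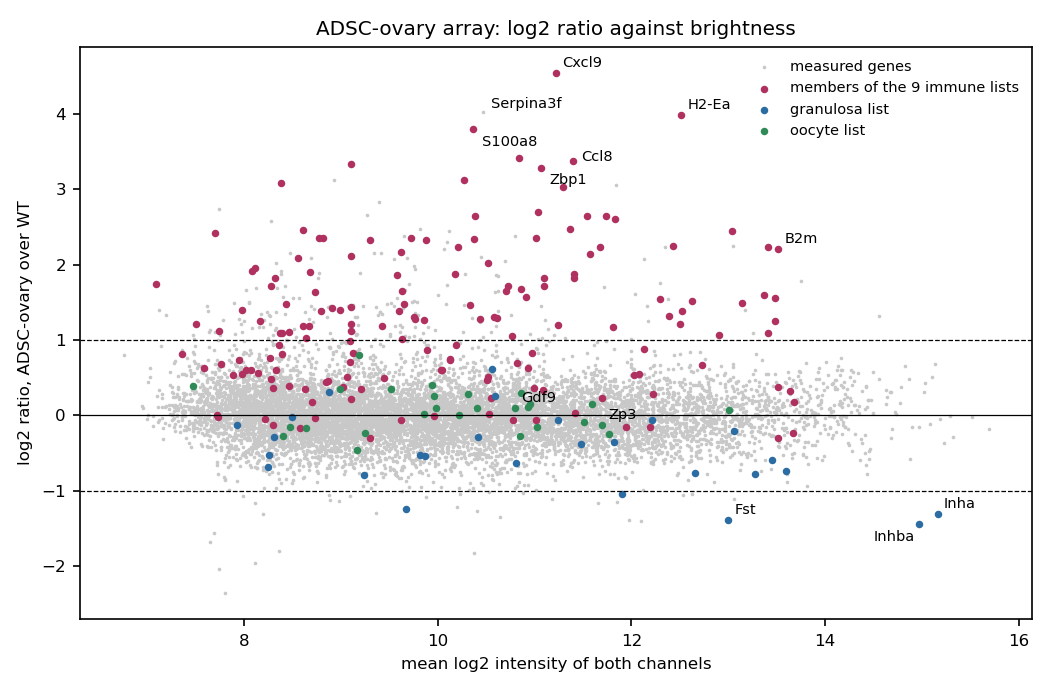
Each grey point is 1 of 9942 measured genes on the ADSC-ovary array, with the mean log2 intensity of both channels on the horizontal axis and the log2 ratio of ADSC-ovary over WT on the vertical axis. Dashed lines mark 2-fold, members of 9 immune lists are red, granulosa genes blue and oocyte genes green. The red points reach 4.54 (Cxcl9), and the blue points of Inhba (-1.44), Fst (-1.39) and Inha (-1.31) lie toward the bright end.

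Chemokines, the secreted proteins that recruit leukocytes, held the largest ratio of the array. Cxcl9, a ligand of the T cell receptor Cxcr3, had an intensity of 11423 in ADSC-ovary and 331 in WT, a log2 ratio of 4.54. It was 2.30 for ADSC-iv and 1.68 for POF. Cxcl11, another Cxcr3 ligand, was above background in ADSC-ovary alone (799, against no signal over the local background in WT) and was at least 3.79-fold higher. Ccl8, which attracts monocytes and T cells, had 8648 in ADSC-ovary and 668 in WT (3.37), with 2.09 for ADSC-iv and 0.82 for POF. Ccl5, which attracts T cells and monocytes, had 3289 in ADSC-ovary and 397 in WT (2.65, SD between its probes 0.22), and stood at 0.92 for ADSC-iv and 0.29 for POF. Ccl2, the main monocyte chemokine, had 2360 in ADSC-ovary and 405 in WT (2.23), with 0.46 for ADSC-iv and 0.80 for POF. Each of these 4 chemokines in both channels had its largest ratio over WT in ADSC-ovary, the array on which they were picked. The cytokine Il1b was above background in ADSC-ovary alone (975 in ADSC-ovary, 120 in WT) and was at least 4.35-fold higher. Ifng, which encodes interferon gamma itself, was also above background in ADSC-ovary alone. Of the 32 chemokine and cytokine genes on the array, 22 were measured, 10 of them in Cy5 alone, and 14 were at least 2-fold higher and 0 lower. In the 12 genes above background in both channels the median was 1.02, and 6 of them were at least 2-fold higher. The list's median was 1.20 here (0.55 without a filter on dim spots). It was 0.80 over the 18 members measured for ADSC-iv and 0.41 over the 16 measured for POF.

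Interferon-response genes were higher as a group. Of 34 measured genes of 36 on the array, 34 had a ratio above 0, 21 were at least 2-fold higher and 0 at least 2-fold lower, and their median was 1.24 against 0.00 over all genes. Among the 32 in both channels, 20 were at least 2-fold higher. Zbp1, a sensor of nucleic acids that can start cell death, had 7753 in ADSC-ovary and 539 in WT (3.29), with its probes between 2.79 and 3.78. Gbp2, a guanylate-binding protein, had 8676 in ADSC-ovary and 1166 in WT (2.64), with 1.28 for ADSC-iv and 1.14 for POF. Irgm2, an immunity-related GTPase, had 10057 in ADSC-ovary and 1080 in WT (2.64), its probes lying between 1.81 and 3.14. Gbp3 stood at 2.48, Iigp1 at 2.35 and Gbp6 at 2.32, each from both channels. At the low end of the list, Socs1, an inhibitor of interferon signalling, had 0.23 and the membrane proteins Ifitm1 and Bst2 0.29 and 0.33. The list's median was 0.95 for ADSC-iv and 0.88 for POF. Gbp and Irgm genes belong to families of similar sequence, and probe sequences were not used here, so their members' signals cannot be told apart with certainty.

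Promoter sequences are shown for the members with the largest ratios whose promoters hold a motif tied to interferon signalling. They were taken from RefSeq (mouse assembly GRCm38.p6) and run from 250 bases before to 50 after the start of transcription. The motifs were the core of the interferon-stimulated response element (ISRE: GAAA, then NN, then GAAA) and TTCNNNGAA, the core of the gamma-activated site bound by STAT factors, searched on both strands, where N is any base. Of 53 members of the chemokine, interferon and MHC lists at least 2-fold higher, 43 had a promoter in the table, in 51 promoters in all. The ISRE core was in 13 of the 51 (25.5%), in 8 of 25 promoters (32%) of members that were measured but not 2-fold higher, in 3.09% of the promoters of all measured genes, and in 3.44% of 32851 promoters in the table. TTCNNNGAA was in 11 of the 51 (21.6%), in 3 of those 25 (12%), in 6.94% for all measured genes and in 8.30% of the table. Both motifs stood in 149 promoters of the table, with overlapping matches in 24. The share of promoters with the ISRE core was not larger in the members that were 2-fold higher than in the other members. A match is a description, not a site. The promoters of Gbp2 (chr3:142620413-142620712), Irgm2 (chr11:58214727-58215026), Gbp3 (chr3:142559794-142560093) and H2-DMb2, a class II chaperone gene (chr17:34144999-34145298), all on the plus strand, read as follows with matches in capitals.
Gbp2: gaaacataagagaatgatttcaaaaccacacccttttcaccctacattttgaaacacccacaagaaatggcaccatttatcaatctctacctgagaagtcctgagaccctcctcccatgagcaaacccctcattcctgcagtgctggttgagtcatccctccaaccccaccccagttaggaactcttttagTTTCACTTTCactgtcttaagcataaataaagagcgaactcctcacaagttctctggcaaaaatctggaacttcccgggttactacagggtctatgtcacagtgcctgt
Irgm2: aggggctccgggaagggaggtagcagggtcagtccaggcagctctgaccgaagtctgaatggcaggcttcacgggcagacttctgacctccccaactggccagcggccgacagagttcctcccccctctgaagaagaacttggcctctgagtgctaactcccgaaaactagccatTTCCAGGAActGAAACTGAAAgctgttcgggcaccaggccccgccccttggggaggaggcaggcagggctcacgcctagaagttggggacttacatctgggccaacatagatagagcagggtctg
Gbp3: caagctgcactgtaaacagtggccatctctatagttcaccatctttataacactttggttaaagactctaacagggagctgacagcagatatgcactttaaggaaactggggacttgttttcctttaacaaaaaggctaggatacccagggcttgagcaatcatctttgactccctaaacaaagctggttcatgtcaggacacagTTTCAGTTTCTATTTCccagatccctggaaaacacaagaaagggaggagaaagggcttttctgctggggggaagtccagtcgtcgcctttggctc
H2-DMb2: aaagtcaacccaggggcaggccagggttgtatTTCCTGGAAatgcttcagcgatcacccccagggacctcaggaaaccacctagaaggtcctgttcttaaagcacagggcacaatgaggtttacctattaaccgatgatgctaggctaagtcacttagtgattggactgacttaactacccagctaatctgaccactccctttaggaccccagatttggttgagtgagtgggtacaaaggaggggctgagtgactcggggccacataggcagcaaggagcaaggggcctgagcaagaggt
The match in Gbp2 lies at bases -59 to -50 from the start and reads as the reverse complement of the motif. Irgm2 holds TTCNNNGAA at -75 to -67 and the ISRE core at -64 to -55, next to each other without overlap. Gbp3 holds overlapping reverse-complement matches at -45 to -36 and -39 to -30, and the other Gbp3 promoter in the table holds neither motif. H2-DMb2 holds TTCNNNGAA alone, at -218 to -210.

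Genes of antigen presentation were higher too. Of 19 measured MHC class I genes, all above background in both channels, 13 were at least 2-fold higher and 0 lower, with a median of 1.22. Psmb8, a catalytic subunit of the immunoproteasome, had 26733 in ADSC-ovary and 4255 in WT (2.23). B2m, the light chain of all class I molecules, had 28748 in ADSC-ovary and 4587 in WT (2.21). H2-K1, a classical heavy chain, had 15201 in ADSC-ovary and 4343 in WT (1.51). The peptide transporter genes Tap1 and Tap2 had 1.01 and 0.63, and the general chaperones Calr and Pdia3 had -0.31 and -0.30. The class I list had a median of 1.07 for ADSC-iv and 1.30 for POF, so its ADSC-ovary median lay between the others.

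MHC class II genes split into members far above WT and members near its level. H2-Ea, an alpha chain of class II, had 26313 in ADSC-ovary and 2259 in WT (3.98), but its probes read 2.56 and 5.41, the widest disagreement between probes (SD 2.01) among the genes named here. C57BL/6 mice are known to carry a deletion at the start of H2-Ea, and what its probes bind in these samples was not tested. H2-DMa, which helps load peptides, had 5230 in ADSC-ovary and 667 in WT (2.70). Cd74, the invariant chain, had 9260 in ADSC-ovary and 1267 in WT (2.61). H2-DMb2 had 4531 in ADSC-ovary and 760 in WT (2.35), and Ctss, the protease that trims the invariant chain, 3996 in ADSC-ovary and 1005 in WT (1.82). H2-Eb1, the beta chain that pairs with H2-Ea, had a ratio of 0.03. Ciita, the activator of class II transcription, was above background in ADSC-ovary alone and was at least 1.23-fold higher. Of 10 measured class II genes, 5 were at least 2-fold higher and 0 lower, and all 5, H2-Ea included, were above background in both channels. The same list had 5 genes at least 2-fold higher for ADSC-iv and 5 for POF, with medians of 0.80 and 0.69 against 1.21 here, which became 2.09 over the 8 genes in both channels and 0.60 without a filter on dim spots. Class I and II genes have close relatives, so cross-hybridization was not tested.

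**Figure D2:**
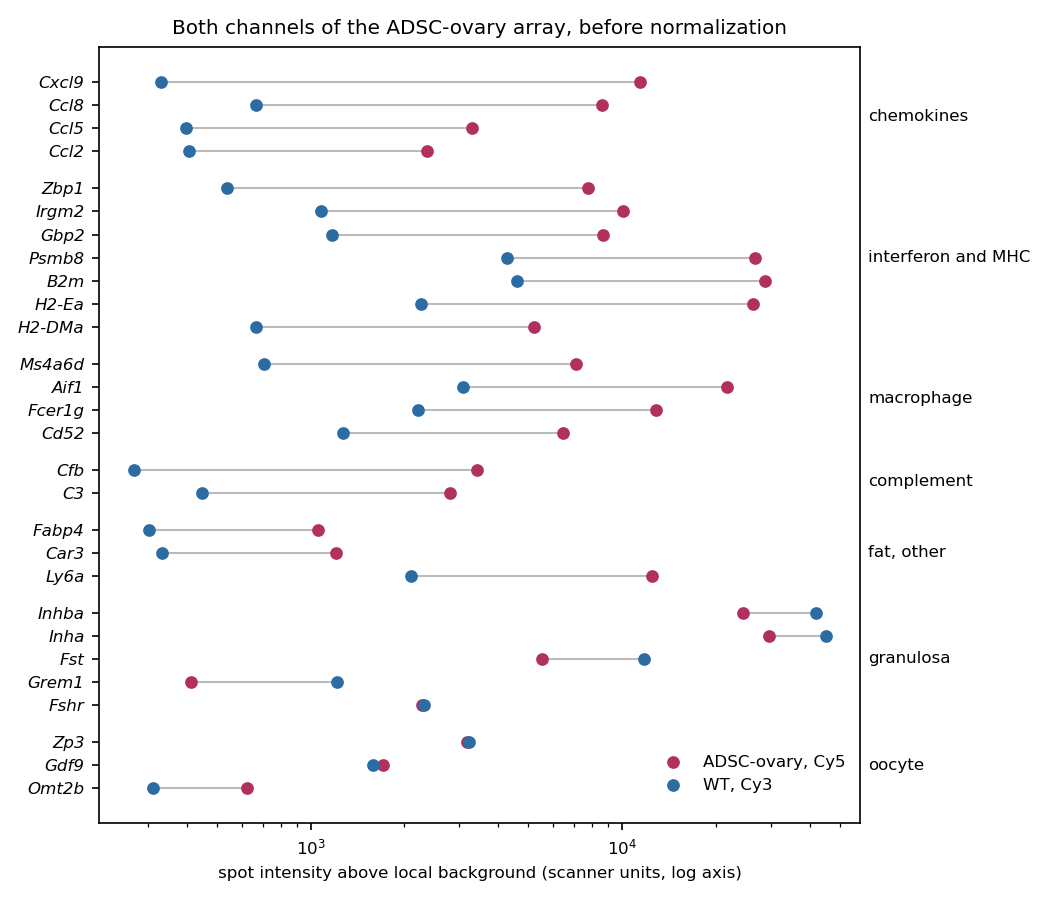
Points give the spot intensity above local background, in scanner units on a log axis, for ADSC-ovary (red, Cy5) and WT (blue, Cy3) on the ADSC-ovary array before normalization, with a grey line joining the channels of each gene. The widest gap is that of Cxcl9, at 11423 in ADSC-ovary and 331 in WT, while Fshr and Zp3 nearly coincide.

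Genes of macrophages and other phagocytes were higher. Ms4a6d, a membrane protein of myeloid cells, had 7107 in ADSC-ovary and 710 in WT (3.03), with 2.21 for ADSC-iv and 1.76 for POF. Aif1, which encodes the macrophage marker Iba1, had 21794 in ADSC-ovary and 3091 in WT (2.44). Fcer1g, the signalling chain of Fc receptors, had 12825 in ADSC-ovary and 2204 in WT (2.25). Ly86, a partner of a Toll-like receptor homologue on leukocytes, had 3884 in ADSC-ovary and 631 in WT (2.38). Cd52, a small surface glycoprotein of leukocytes, had 6443 in ADSC-ovary and 1265 in WT, a ratio of 2.14 that stood at 2.12 on the ADSC-iv array. The immunoglobulin receptors Fcgr1 and Fcgr4 were above background in ADSC-ovary alone and were at least 5.01-fold and at least 6.12-fold higher. Cd68, the lysosomal protein that defines macrophages, was less far from 0, with 2565 in ADSC-ovary and 1364 in WT (0.83). Cd163, a scavenger receptor of resident macrophages, had -0.17. Of 32 measured macrophage genes of 35, 20 were at least 2-fold higher and 0 lower, and of the 22 in both channels 14 were. The list's median was 1.30 here, 0.89 for ADSC-iv and 0.53 for POF, and the intensities of all 32, of which 10 were above background in ADSC-ovary alone, summed to 178706 in ADSC-ovary and 48432 in WT.

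Complement and acute-phase genes were also higher, and their list medians were smaller for ADSC-iv and POF. Cfb, factor B of the alternative pathway, had 3414 in ADSC-ovary and 270 in WT (3.13), with 2.06 for ADSC-iv and 2.02 for POF. C3, the central complement protein, had 2799 in ADSC-ovary and 448 in WT (2.34), with 1.0 for ADSC-iv and 0.73 for POF. C1qb and C1qc, subunits of the classical pathway's sensor made by macrophages, had 1.56 and 1.31. Cfd, factor D, which is also a product of fat cells, was above background in ADSC-ovary alone and at least 3.59-fold higher. Serpina3g, a protease inhibitor, had 5805 in ADSC-ovary and 409 in WT (3.41), and its relative Serpina3f 5411 in ADSC-ovary and 198 in WT (4.02). Serpina3 genes are near-identical in part, so their signals may be shared. Hp, which encodes haptoglobin, had 1193 in ADSC-ovary and 421 in WT (1.30), with 0.35 for ADSC-iv and 0.36 for POF. The complement list had 8 of 16 measured genes at least 2-fold higher and 0 lower, with a median of 1.01 (0.40 without a filter on dim spots). Its median was 0.33 over 15 measured genes for ADSC-iv and 0.21 over 13 for POF. The acute-phase list had 6 of 10 at least 2-fold higher and 0 lower, with a median of 1.35 against 0.30 for ADSC-iv and 0.32 for POF. That median was 0.92 over its 8 members in both channels and 0.54 without a filter on dim spots.

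Neutrophil and lymphocyte genes were seen mostly in the Cy5 channel. All 10 measured neutrophil genes of 18 were above background in ADSC-ovary alone, so only bounds can be given. S100a8 and S100a9, which form calprotectin, had 4664 and 1529 in ADSC-ovary against 203 and 23 in WT. Their bounds were 13.9-fold and 6.91-fold. The bound of S100a8 equals its log2 ratio of 3.80, so its true fold may be smaller. S100a8 stood at 2.94 for ADSC-iv and 3.02 for POF, and S100a9 at 2.17 and 2.21. The secreted chitinase-like gene Chil3 was at least 1.86-fold higher, the peroxidase gene Mpo at least 2.04-fold and the granule gene Ngp at least 2.34-fold. The neutrophil list's median was 1.61 here, 0.90 for ADSC-iv and 1.17 for POF. On those arrays 4 of 8 and 5 of 9 measured genes were at least 2-fold higher. Of T and natural killer cell genes, the granule proteases Gzma and Gzmb (822 and 860 in ADSC-ovary, 46 and 54 in WT) were at least 3.89-fold and at least 3.99-fold higher. The receptor gene Klrk1 was at least 3.04-fold higher. For the 7 genes of that list in both channels the median was 0.37, with Coro1a, an actin regulator of leukocytes, at 1.71. The whole T and natural killer list's median was 0.73 here, 0.57 over 16 measured genes for ADSC-iv and 0.52 over 12 for POF. Ptprc, which marks all leukocytes, was above background in ADSC-ovary alone and was at least 1.56-fold higher. Only 3 of 11 genes of the B and plasma cell list were measured. Cd79b had 0.79 and Jchain was above background in WT alone, at least 2.47-fold lower in ADSC-ovary.

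**Figure D3:**
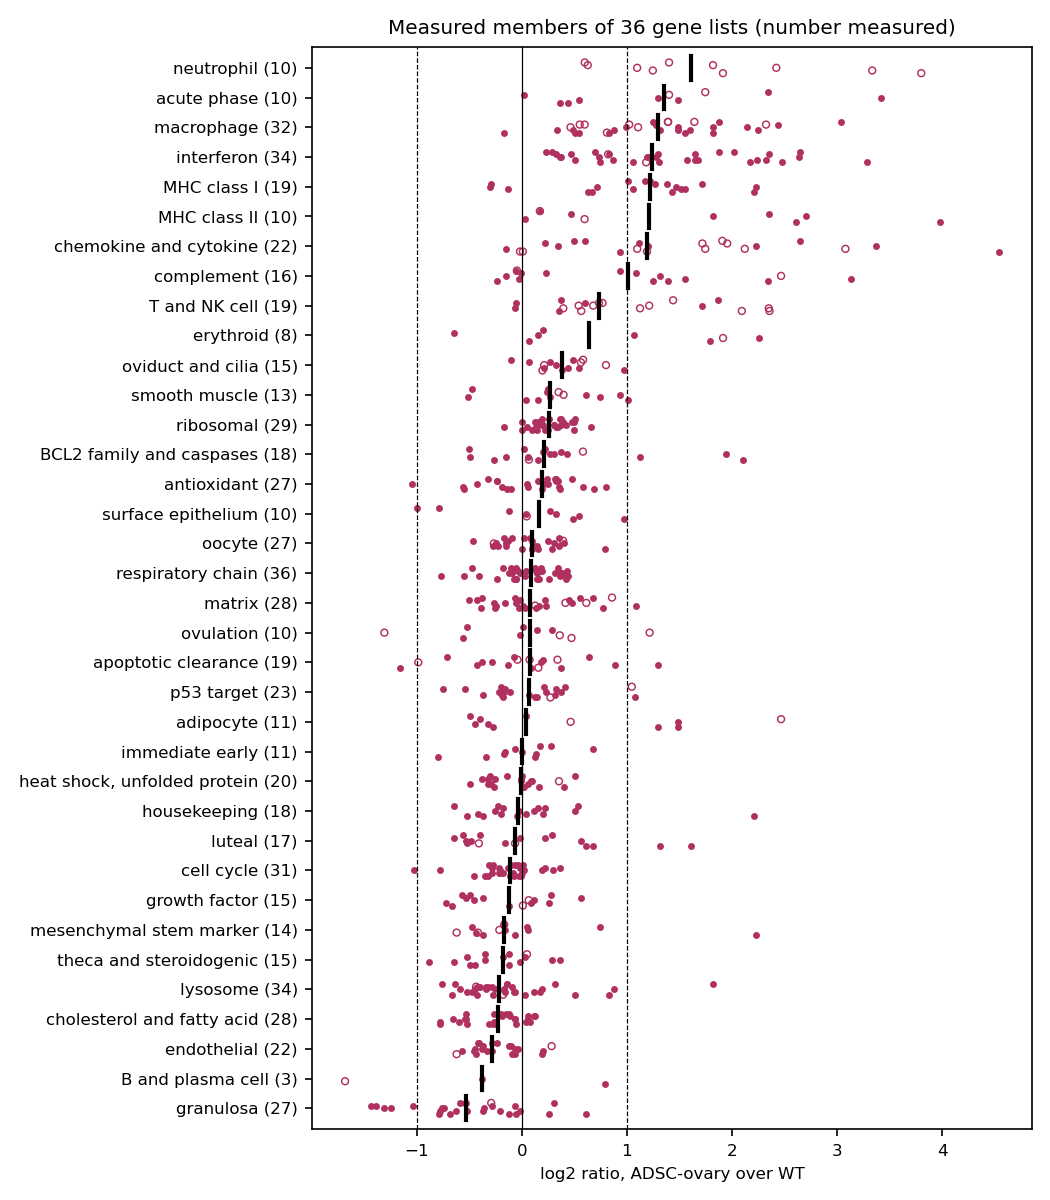
Each point is a measured gene of 1 of 36 gene lists (number measured in brackets), placed by its log2 ratio of ADSC-ovary over WT. Filled points were above background in both channels and open points in 1 channel, the thick black bar is the list's median and dashed lines mark 2-fold. Over the genes in both channels alone, 6 immune lists have a median above 1, and the granulosa list has the lowest median at -0.53.

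Granulosa genes were the lowest of the 36 lists on this array. Of 27 measured genes of 28, 24 had a ratio of 0 or less, 5 were at least 2-fold lower against 0.352% of all genes, and 0 were at least 2-fold higher. Inhba, the subunit that forms activin A, had 24526 in ADSC-ovary and 41984 in WT (-1.44), with -0.91 for ADSC-iv and -0.75 for POF. Inha, the subunit that makes inhibin, had 29570 in ADSC-ovary and 45144 in WT (-1.31), with -0.85 for ADSC-iv and -0.61 for POF. Fst, which encodes follistatin, had 5520 in ADSC-ovary and 11780 in WT (-1.39), with -0.88 and -0.87 on the ADSC-iv and POF arrays. Grem1, an antagonist of bone morphogenetic proteins, had 412 in ADSC-ovary and 1212 in WT (-1.25). Nap1l5 had 2679 in ADSC-ovary and 5116 in WT (-1.04), against -0.20 for ADSC-iv and -0.30 for POF. Nppc, whose peptide from granulosa cells holds the oocyte in meiotic arrest, had 1359 in ADSC-ovary and 2774 in WT (-0.99). Fshr, the receptor of follicle-stimulating hormone, had -0.06, and Kitl, a growth factor for the oocyte, had -0.53 here, -2.14 for ADSC-iv and -1.26 for POF. Cyp19a1, the aromatase gene, had -0.63. The list's median was -0.53, against -0.20 for ADSC-iv and -0.15 for POF. The size of the ratios of bright genes depended on the normalization. With median centring and no loess, Inhba had -0.52, Inha -0.36 and Fst -0.84, the list's median was -0.25, and 1 gene instead of 5 was at least 2-fold lower. The median of all measured genes was 0.15 with that setting.

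Oocyte genes were close to their WT level. Of 27 measured genes of 33, 0 were at least 2-fold higher or lower, 17 had a ratio above 0, and the median was 0.10. Gdf9, a growth factor secreted by the oocyte, had a ratio of 0.10 and Zp3, a protein of the zona pellucida, -0.13. On the ADSC-iv array Gdf9 had 0.90 and Zp3 0.54, and the list's median was 0.67 with 4 genes at least 2-fold higher. On the POF array the median was -0.02. The most distant members here were Omt2b, at 624 in ADSC-ovary and 312 in WT (0.80), and Kit, the receptor of Kitl, at 363 in ADSC-ovary and 560 in WT (-0.46).

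Steroid-producing and luteal genes had medians below 0 that depended on the normalization. The theca and steroidogenic list had a median of -0.18 over 15 measured genes, with 0 at least 2-fold higher or lower, and the median turned to 0.19 with median centring. As reported, 4 of the 15 were above 0, and the lowest were Aldh1a1 (-0.89), Scarb1 (-0.65) and Lhcgr (-0.52). Star, which carries cholesterol into mitochondria, had 4941 in ADSC-ovary and 3585 in WT (0.29), against -0.68 for ADSC-iv and -0.44 for POF. Cyp17a1, the enzyme that makes androgens, had -0.12 here, -1.31 for ADSC-iv and 0.61 for POF, and 0.82 with median centring here. Cyp11a1 had -0.01 here, -0.32 for ADSC-iv and 0.41 for POF, and 0.96 with median centring here. Of 17 luteal genes, 2 were at least 2-fold higher, against 2.68% of all measured genes. These were Akr1c18, which breaks down progesterone, at 46409 in ADSC-ovary and 12298 in WT (1.32), and Akr1b7, another aldo-keto reductase, at 7598 in ADSC-ovary and 2135 in WT (1.61). Akr1c18 had 0.93 for ADSC-iv and 0.29 for POF, and Akr1b7 had 1.07 for ADSC-iv and 2.02 for POF. The luteal median was -0.06, with 7 of the 17 above 0, and 0.38 with median centring. The 28 genes of cholesterol and fatty acid synthesis had 0 past 2-fold, 6 above 0 and a median of -0.22, or 0.13 with median centring. With median centring the median of all genes was 0.15, so the cholesterol list stayed below it. On the ADSC-iv array that list stood at -0.71 and on the POF array at -0.16.

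Other genes at the low end had varied functions. Ddx6, an RNA helicase of processing bodies, had 2733 in ADSC-ovary and 6599 in WT (-1.40), with -1.11 for ADSC-iv and -1.60 for POF. Eif4g1, a scaffold of translation initiation, had 2502 in ADSC-ovary and 6065 in WT (-1.38), with -1.32 and -1.99 on the ADSC-iv and POF arrays. Smoc2, a secreted matrix-associated protein, had -1.35, Slc38a1, an amino acid transporter, -1.27, and Soat1, which esterifies cholesterol, -1.15. Gas6, the bridging ligand between dying cells and the receptors Axl and Mertk, had 2108 in ADSC-ovary and 4548 in WT (-1.16), while it stood at -0.01 for ADSC-iv and -0.02 for POF. Cdkn1b, an inhibitor of the cell cycle, had -1.03. The genes Ecm1, Tenm4, Rasd1 and Myo6 had ratios from -1.11 to -1.01.

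**Figure D4:**
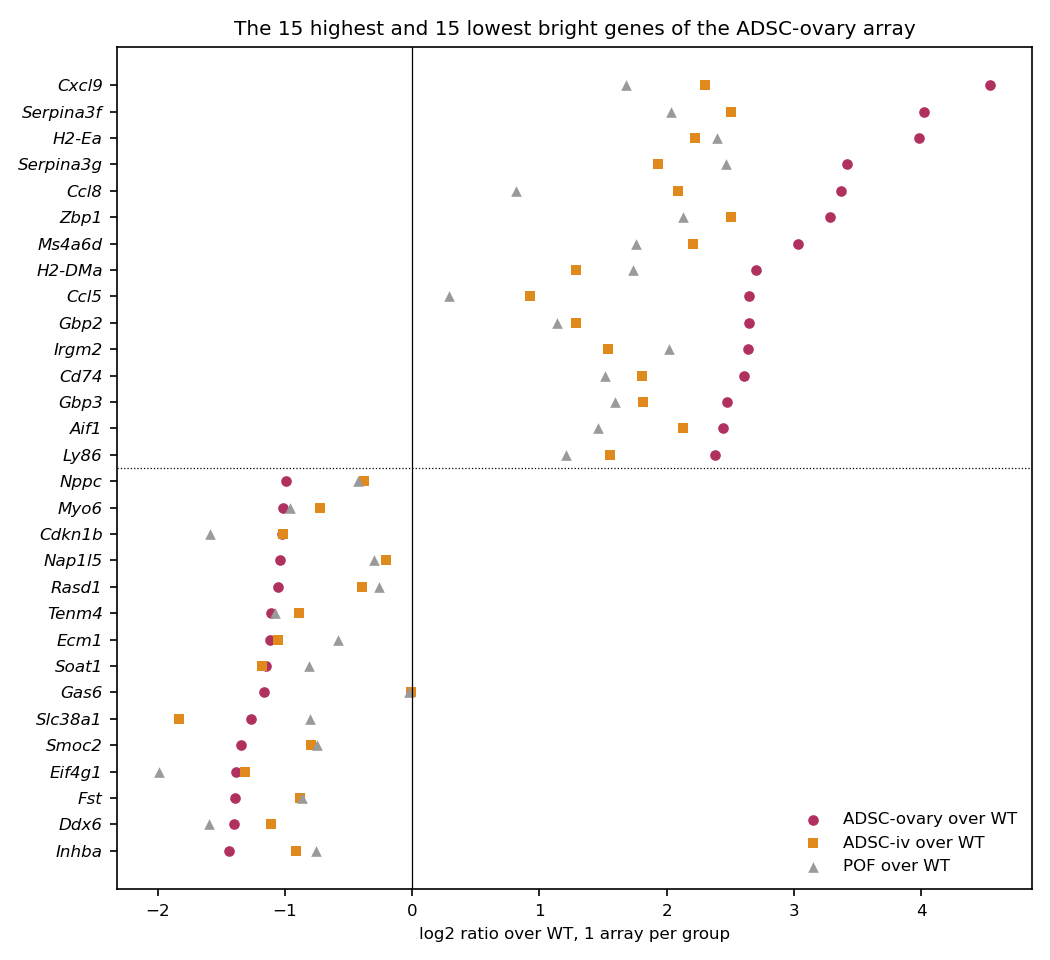
Log2 ratios over WT of the 15 highest and 15 lowest bright genes of the ADSC-ovary array (red circles), with the values of the same genes on the ADSC-iv (orange squares) and POF (grey triangles) arrays, 1 array per group and WT in the other channel of each. The genes were picked on the ADSC-ovary array, so its points are the most extreme in part by choice. Gas6 has -1.16 on the ADSC-ovary array and lies near 0 on the others.

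Lists of cell death and stress genes had medians near 0. Of 18 measured genes of the BCL2 and caspase families, the 3 that were at least 2-fold higher were caspases. Casp1, the inflammasome protease, had a ratio of 2.10, Casp4 1517 in ADSC-ovary and 304 in WT (1.94), and Casp12 654 in ADSC-ovary and 232 in WT (1.13). The median of 23 p53 targets was 0.07, and -0.12 over the 21 in both channels. The cell-cycle inhibitor Cdkn1a had 1.08, and the death receptor Fas, above background in ADSC-ovary alone, was at least 2.07-fold higher. With loess within each print block, 0 p53 targets were past 2-fold, and Cdkn1a had 0.92. The antioxidant median was 0.19, with Gclc, which starts glutathione synthesis, at -1.05. The 31 cell-cycle genes had a median of -0.12, which turned positive with median centring (0.08, against 0.15 over all genes). Ribosomal protein genes were above 0 in 27 of 29 cases with a median of 0.26, and stood at 0.58 for ADSC-iv and 0.14 for POF. With median centring their median on this array was 0.87, and 9 of the 29 were at least 2-fold higher. The median of 22 endothelial and angiogenic genes was -0.28 (-0.06 with median centring), and 3 of them were above 0 and 0 past 2-fold. The 15 growth factors, products often attributed to ADSC, had a median of -0.13, or -0.37 over the 13 in both channels, and 0 past 2-fold, which is near the background. The median of 28 matrix genes was 0.08 (0.00 over the 24 in both channels), with Spp1, which encodes osteopontin, at 1.08. Lists of lysosome, ovulation, apoptotic clearance, immediate early, heat shock, respiratory chain, surface epithelium and housekeeping genes had medians from -0.22 to 0.16. Of these, the lysosome, heat shock and housekeeping medians, all below 0, turned positive with median centring. The lysosome median, at 0.12, was still below the 0.15 over all genes with that setting. The ovulation, apoptotic clearance and immediate early medians turned negative under at least 1 other alternative. The respiratory chain median of 0.09 became 0.69 with median centring, with 3 of 36 genes at least 2-fold higher.

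Markers of cells beyond the follicle moved beside these results, and their part in them was not tested. Red cell genes did not move together. Hbb-b1 had 20717 in ADSC-ovary and 3347 in WT (2.25), Hba-a1 29744 in ADSC-ovary and 6222 in WT (1.79), and Alas2 1.07. The other members in both channels were Car2 (0.21), Tfrc (0.15), Bpgm (0.07) and Fech (-0.64). Of 8 measured red cell genes of 15, 4 were at least 2-fold higher, their median was 0.64 (0.21 over the 7 in both channels), and their intensities summed to 59546 in ADSC-ovary and 17323 in WT. Hbb-b1 had 0.84 for ADSC-iv and 1.80 for POF. The red cell list's median was 0.26 for ADSC-iv and 1.07 for POF, with 4 genes at least 2-fold higher for POF. Fat cell genes were divided, with 4 of 11 at least 2-fold higher and a median of 0.04, which turned to -0.27 over the 9 genes in both channels and reached 0.75 with the authors' processed values. Fabp4, a fatty acid carrier, had 1058 in ADSC-ovary and 302 in WT (1.49), and Car3, a carbonic anhydrase abundant in fat, 1201 in ADSC-ovary and 333 in WT (1.48). Cd36, a fatty acid transporter also found on macrophages, had 1.29, while Pparg had -0.45, Lpl -0.50 and Plin1 -0.32, and Adipoq was not well above background. The fat cell intensities summed to 21803 in ADSC-ovary and 19136 in WT. The 13 smooth muscle genes stood at a median of 0.27, with Des, which encodes desmin, at 1.01, and their intensities summed to 88351 in ADSC-ovary and 58914 in WT. The oviduct and cilia list, with 15 of 26 measured, stood at 0.38 with 0 past 2-fold and Ovgp1, the defining oviduct gene, at 0.20, and summed to 10267 in ADSC-ovary and 7169 in WT. Ovgp1 stood at 0.12 for ADSC-iv and 4.02 for POF. All these sums are before normalization, where the 29 ribosomal protein genes summed to 485031 in ADSC-ovary and 285149 in WT. The 18 housekeeping genes summed to 298904 in ADSC-ovary and 193181 in WT. The dye balance before normalization changed with brightness, so sums of lists of unlike brightness cannot be compared in proportion. After normalization the ribosomal and housekeeping medians were 0.26 and -0.03, and the housekeeping list includes B2m (2.21). Ly6a, a surface protein of stem cells and leukocytes that interferon raises, had 12471 in ADSC-ovary and 2095 in WT (2.23).

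**Figure D5:**
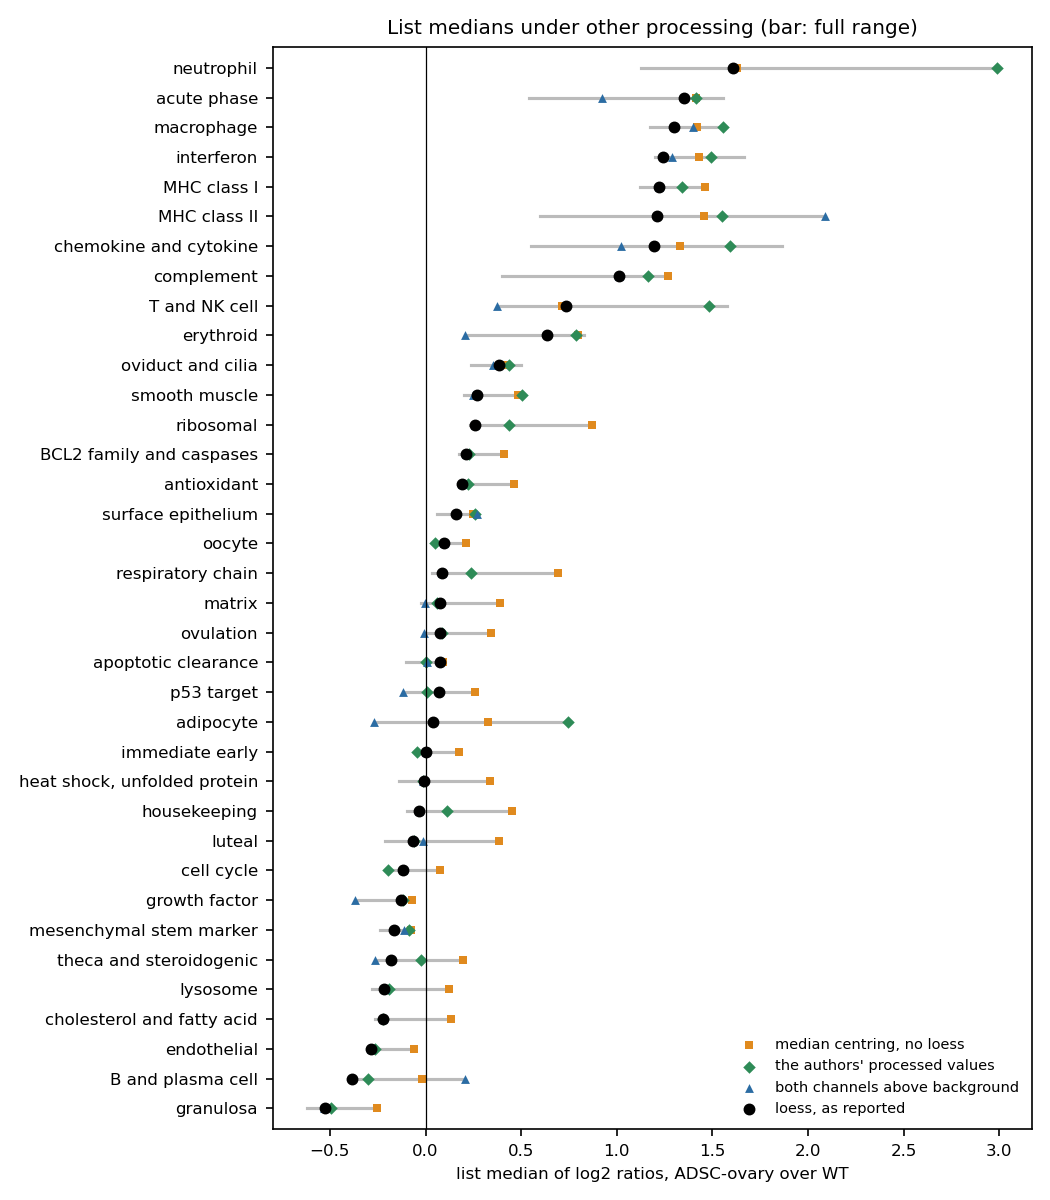
Median log2 ratio of ADSC-ovary over WT for 36 gene lists as reported (black circles) and with 3 of 11 other ways of processing the array (coloured symbols), with a grey bar for the range over all of them. The interferon median stays between 1.20 and 1.66 and the granulosa median between -0.62 and -0.25, while 7 lists with medians near 0 change sign with median centring. With that setting the median of all measured genes is 0.15.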

How the data were processed

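RNA of 1 treated group in Cy5 and of WT in Cy3 was hybridised to each of 3 arrays, per the labels. The deposited scanner files hold median spot intensities and local backgrounds, neither background-subtracted nor normalized per the file headers, from LuxScan 3.0, which the series' design text names. The authors also deposited a log2 ratio of Cy5 over Cy3 for each spot, whose normalization is not given in the sources used here. They followed the background-subtracted ratio with r of 0.957 over 8800 bright spots (median of all 0.02). A deposited flag score, 100 or its negative for each spot, has no stated meaning.

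With limma 3.58.1 (R 4.3.3), intensities were corrected by normexp (offset 50) and ratios normalized by loess within the array, giving control spots a weight of 0. The steps were tested on simulated data. The median log2 ratio was -0.25 before loess. Only 2 Cy5 probes and 0 Cy3 probes were saturated. A spot counted as above background if it exceeded its local background median by over 2 background SDs. A gene above background in 1 channel passed only through that channel, so it was given a bound against the higher of its own dim signal and the lowest signal above background. That bound does not use the detection limit of the gene's own spot, so it is nominal. Of 31920 gene probes, 7528 had no name and were left out of gene values. Names were updated through RefSeq (GRCm38.p6), with 14166 current, 3898 synonyms and 1454 kept as they stood. Tables used Python 3.11.15, numpy 2.4.6 and pandas 2.3.3.

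Genes named were the 15 highest and 15 lowest with a current symbol, both channels above background, a flag of 100, brightness above the median of such genes and probes of 1 sign, then up to 6 members per list, 5 bounds each way and defining markers. H2-Eb1, Ifng, Socs1, Ifitm1, Bst2, Tap1, Tap2, Calr, Pdia3, Cyp19a1, Cd163, Adipoq, Pparg, Plin1 and Ovgp1 are outside the rule, chosen once their values had been seen. Some genes that the rule names are not reported here. The members and lists were chosen with earlier results of these data known, and lists share genes. With 1 array there was no test. Alternatives were median centring, the authors' values, background subtraction, no background correction, an offset of 16, filters on brightness and flags, and the median over probes. Averaging only probes above background and loess within print blocks were added after seeing the data.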

Additional observations from a re-analysis of the deposited data

Results flagged for a closer look

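Probes without a gene name gave signal as well. Of 7528 such probes, 2048 were above background in at least 1 channel, and 47 of them (2.29%) were at least 2-fold higher in ADSC-ovary than in WT and 10 (0.488%) at least 2-fold lower. The largest ratio, 3.90, came from a probe with an intensity of 25294 in ADSC-ovary and 1291 in WT.

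The genes Car3, Fabp4 and Des stood past 2-fold on the ADSC-ovary array and on the other side of 0 on another array. Car3 stood at 1.48 for ADSC-ovary, 0.20 for ADSC-iv and -0.36 for POF. Fabp4 stood at 1.49 for ADSC-ovary, 0.72 for ADSC-iv and -0.24 for POF. Des stood at 1.01 for ADSC-ovary and 0.88 for POF, and ADSC-iv alone was below 0, at -0.42. For ADSC-ovary, Des fell below 2-fold with loess within each print block (0.90) and with no background correction (0.98). The differences between groups rest on 1 array per group and were not tested.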

How the results depend on the processing

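Over 11 alternatives, the count of genes at least 2-fold higher stayed above the count lower. The 266 genes higher and 35 lower became 442 and 22 with median centring (which moved the median of all genes to 0.15), 728 and 153 with the authors' processed values, and 576 and 178 with background subtraction. They became 166 and 24 of 8511 genes above background in both channels, and 322 and 79 without a filter on dim spots. The other 6 settings gave 208 to 301 higher and 32 to 46 lower. Higher genes were thus 88.4% of calls as reported, 95.3% with median centring, 82.6% with the authors' values and 76.4% with background subtraction. Of 95 named genes past 2-fold, all with a value kept their sign under each alternative, and 83 stayed past 2-fold with median centring and 91 with the authors' values. For a gene with 1 probe, the filters and the ways of averaging can only drop it or return the same value. Those alternatives are therefore no check on such a gene's sign. The sign of the list median was the same under each alternative in 21 of 36 lists, among them granulosa, oocyte and the immune lists other than neutrophil, which had a value under 10 alternatives and none over genes in both channels. With median centring, the theca, luteal, cholesterol, lysosome, cell cycle, heat shock and housekeeping lists changed sign. Of these, the cholesterol (0.13), lysosome (0.12) and cell cycle (0.08) medians still lay below the 0.15 over all genes. No paired analysis was possible because each group had 1 array. Signal over background limits the dim genes, since 48.9% of named genes were not measured.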

Other observations

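Calhm6, an ion channel gene of leukocytes, was above background in ADSC-ovary alone on this array (1596 in ADSC-ovary, 106 in WT) and was at least 7.12-fold higher. Its ratio over WT was 1.66 for ADSC-iv and 0.35 for POF. Ifi205, an interferon-inducible gene, was at least 5.19-fold higher, with 1.12 for ADSC-iv and 0.87 for POF.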
